A study of Mus musculus with 18 samples.

Results

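The enzymes of the tricarboxylic acid (TCA) cycle were followed here through 9 genes: Cs, Idh3a, Idh3g, Ogdh, Dlst, Suclg1, Fh1, Mdh1 and Mdh2. They were chosen by name, as enzymes of the cycle and the cytosolic malate dehydrogenase that works beside it, and every probe set whose only annotated symbol was one of these names was taken. That gave 12 probe sets, out of 10833 with 1 gene symbol (8251 genes) on the array. Of the 12, 10 passed the filter on low signals, at least 1 for each of the 9 genes. The other 2 were second probe sets. The second Idh3a probe set (161652_r_at) lay at 0.251 to 7.63 on the 18 arrays, always under the floor of 9.46 that was set on low signals. The second Idh3g probe set (162478_r_at) reached 1.79 to 22.1 and was above the floor on 9 arrays.

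The arrays came from mice that lack Aldh5a1 (labelled Aldh5a1-/-, here KO) and from wild-type mice (labelled Wt, here WT). Hippocampus, cerebellum and cortex of 3 KO and 3 WT mice were each hybridised to 1 array, which gave 6 groups of 3. KO animals carry the numbers 3363, 3389 and 3403, and WT animals 3405, 3406 and 3396. Age, sex, strain and treatment are not given in the sources used here, and the targeted gene had 0 probe sets with its name, so genotype rests on the labels. Each value is a scaled intensity (signal) of 1 probe set on 1 array, and signals of different probe sets were not compared with each other.

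The TCA cycle oxidises acetyl groups in the mitochondrial matrix and hands the electrons to the respiratory chain. Succinate semialdehyde dehydrogenase, the product of Aldh5a1, is the last enzyme of the GABA shunt. This route leaves the cycle at 2-oxoglutarate, passes through glutamate and GABA, and returns at succinate, so it bypasses the steps that Ogdh, Dlst and Suclg1 carry out. The question asked of these genes is whether their transcripts differ between brain regions, and between brains with and without that enzyme.

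Marker genes fitted the labels of cerebellum against forebrain. They do not tell hippocampus from cortex, and that distinction rests on the sample titles. Of 10 granule and Purkinje cell markers, 8 were measured, and their summed signal was 14994 to 16237 on the cerebellar arrays and 814 to 1103 on the others. Of 8 markers of forebrain excitatory neurons, 5 were measured, with sums of 274 to 339 in cerebellum. Their sums overlapped between hippocampus (3800.5 to 4933) and cortex (4548 to 5371). Tbr1, Nrgn, Camk2a and Neurod6 lay under the floor in cerebellum. Replicate arrays correlated at 0.955 to 0.976 across probe sets, and 18 of 18 arrays were closest to the arrays of their own region. In tissue of mixed cells, fewer cells of a type and less RNA per cell cannot be told apart.

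**Figure D1:**
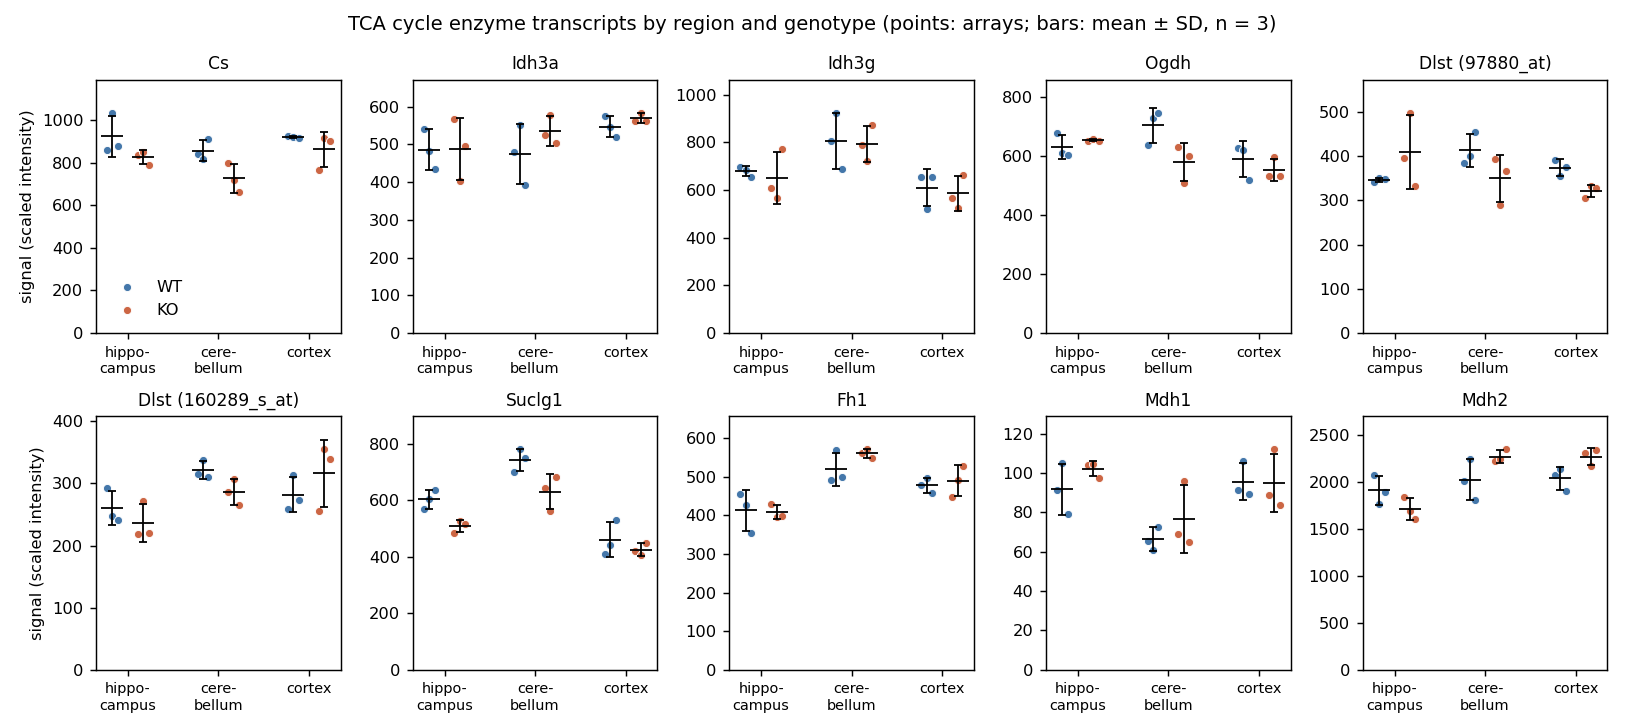
Signal (scaled intensity, linear axis from 0) of the 10 kept probe sets by region, with 1 point per array, WT in blue and KO in orange, and black bars for the mean ± SD of 3 arrays. Suclg1 is highest in cerebellum and lowest in cortex in both genotypes, while Mdh1 is lowest in cerebellum.

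Between regions, Suclg1 had the lowest p of the members in both genotypes. This gene encodes the alpha subunit of succinyl-CoA ligase, which makes succinate from succinyl-CoA. In WT mice it was 1.62-fold higher in cerebellum than in cortex, with hippocampus between them. Idh3g, a regulatory subunit of the NAD-dependent isocitrate dehydrogenase, and Fh1, fumarase, were also higher in WT cerebellum, each than 1 of the forebrain regions. Mdh1, the cytosolic malate dehydrogenase, was lower there than in both. Cs, Idh3a, Ogdh, Dlst and Mdh2 did not pass in WT. In limma's moderated F test over the WT regions, with the animal as a block and p adjusted over all 8382 probe sets, 4 of the 10 probe sets had an adjusted p under 0.05. Among all probe sets 46.5% did, so the share of the enzymes was near the background.

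Suclg1 read 700, 780 and 748 in the cerebella of WT animals 3396, 3405 and 3406. In their hippocampi it read 570, 604 and 636, and in their cortices 409, 442 and 531. All 3 animals had the order cerebellum, hippocampus, cortex, and the values of the regions did not overlap. KO animals had the same order in 3 of 3, with 563 to 683 in cerebellum, 485 to 528 in hippocampus and 405 to 450 in cortex. Log2 differences of cerebellum from cortex were 0.70 ± 0.094 (SE) in WT and 0.56 ± 0.094 in KO, with limma adjusted p of 4.16e-05 and 0.000266. Cerebellum exceeded hippocampus by 0.30 ± 0.094 in both (0.0255 and 0.0192). Hippocampus exceeded cortex by 0.40 ± 0.094 in WT (0.0126) and by 0.26 ± 0.094 in KO (0.0779, not past the threshold). Its F test was passed in both genotypes under all 15 alternatives, with adjusted p of at most 0.0033 in WT and 0.0133 in KO. Single steps were less stable: the WT step from hippocampus to cerebellum did not pass without WT animal 3405, 3406 or 3396 (0.121, 0.0563 and 0.0805), nor with no intensity trend or on the 9 WT arrays alone (0.0508 and 0.0647), and the KO step not without 3363 or 3403 (0.151 and 0.151). The step from cortex to hippocampus in WT did not pass without 3405 or 3396 (0.0652 and 0.0897).

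Idh3g had signals of 687 to 924 in WT cerebellum, 655 to 696 in WT hippocampus and 519 to 656 in WT cortex. Its cerebellar values were above the animal's own cortex in 3 of 3 WT and 3 of 3 KO mice. The log2 difference of cerebellum from cortex was 0.40 ± 0.11 in WT and 0.44 ± 0.11 in KO (limma adjusted p = 0.0122 and 0.00722). Hippocampus lay between, 0.24 ± 0.11 under cerebellum in WT (0.134) and 0.30 ± 0.11 under it in KO (0.0499). The KO value did not pass under 9 of 15 alternatives, among them no replicate block (0.0926). WT cerebellum against cortex did not pass without 3405 (0.186). KO cerebellum against cortex did not without 3363 or 3389 (0.0529 and 0.0547). The WT F test of Idh3g did not pass under 8 of 15 alternatives, with adjusted p of up to 0.312 (without 3405). Idh3a, the catalytic subunit of the same enzyme, had no such order. It read 391 to 550 in WT cerebellum, 434 to 541 in hippocampus and 520 to 576 in cortex, which overlap, and its F test gave adjusted p of 0.272 in WT and 0.252 in KO.

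Fumarase, which turns fumarate into malate, was lowest in hippocampus. Fh1 read 354 to 456 in WT hippocampus, 457 to 496 in WT cortex and 492 to 569 in WT cerebellum. In KO mice the ranges were 396 to 430, 448 to 529 and 547 to 571, with no overlap between regions. Cerebellum exceeded hippocampus by a log2 difference of 0.34 ± 0.10 in WT and 0.46 ± 0.10 in KO (limma adjusted p = 0.0187 and 0.00218). Without WT animal 3405 or 3406 the WT difference did not pass (0.105 and 0.165), and the WT F test of Fh1 did not pass under 5 of 15 alternatives (up to 0.248, without 3406). WT cerebellum against cortex did not pass (0.347), but did after median scaling (0.0399). Cortex was above hippocampus in 6 of 6 animals, but the difference did not pass in WT (0.165) or in KO (0.101).

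Malate dehydrogenase closes the cycle by turning malate into oxaloacetate. Its cytosolic and mitochondrial forms, Mdh1 and Mdh2, are both needed for the malate-aspartate shuttle, which brings reducing equivalents into the matrix. Mdh1 read 60.7, 65.6 and 72.6 in WT cerebellum, against 78.9 to 105 in WT hippocampus and 89.2 to 106 in WT cortex. The WT cerebellar arrays lay below all other WT arrays. Mdh1 was 1.38-fold lower in WT cerebellum than in hippocampus and 1.44-fold lower than in cortex (log2 -0.46 ± 0.16 and -0.53 ± 0.16, limma adjusted p = 0.0388 and 0.0159). In KO mice the differences were -0.44 ± 0.16 (0.0414) and -0.32 ± 0.16 (0.126), and KO cerebellum spanned 64.7 to 96.1. The limma F test for Mdh1 in KO did not pass (adjusted p = 0.0756), nor did it under any of the 15 alternatives (0.0519 to 0.334). The F test for Mdh1 in WT did not pass after quantile normalization or median scaling of the arrays (adjusted p = 0.0666 and 0.0938). Without WT animal 3405 or 3396 it did not either (0.227 and 0.0883). Cerebellum against hippocampus did not pass under 9 of 15 alternatives in WT (up to 0.285, without 3405) and 6 in KO (up to 0.225, without 3363), and cerebellum against cortex under 3 in WT (up to 0.132, without 3405). With no replicate block the first had adjusted p of 0.0517 in WT and 0.0545 in KO.

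Mdh2 showed no regional difference past the threshold in WT, where it read 1771 to 2077 in hippocampus, 1812 to 2247 in cerebellum and 1902 to 2143 in cortex. In KO mice it read 1611, 1691 and 1846 in hippocampus, 2227 to 2350 in cerebellum and 2172 to 2339 in cortex. KO hippocampus lay below both other KO regions in 3 of 3 animals, with no overlap. The log2 difference was 0.41 ± 0.090 for KO cerebellum over hippocampus and -0.41 ± 0.090 for KO hippocampus against cortex (limma adjusted p = 0.00238 and 0.00777). Without KO animal 3389 or 3403 the second did not pass (0.0595 and 0.106). A region difference past the threshold in KO alone is not a difference between the genotypes: the interaction test for Mdh2 gave an adjusted p of 0.42.

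Cs and the 2-oxoglutarate dehydrogenase complex did not pass over the WT regions. Citrate synthase, which starts the cycle, read 859 to 1034 in WT hippocampus, 818 to 913 in WT cerebellum and 915 to 924 in WT cortex (F test adjusted p = 0.592). In KO its F test gave 0.127, and 0.0444 without KO animal 3363. Ogdh, the E1 subunit of the complex, read 606 to 680, 637 to 748 and 521 to 630 in the same order (0.162). After median scaling Ogdh passed (0.0252), as did probe set 160289_s_at of Dlst (0.0256), and Ogdh in cerebellum against cortex passed after it (0.0103) and without WT animal 3396 (0.036). Dlst, the E2 subunit, was measured by a pair of probe sets that disagreed. After median scaling 160289_s_at passed for cerebellum against hippocampus in WT (0.0209) and KO (0.0215) and against cortex in WT (0.0308). Without WT animal 3396 it passed for WT cerebellum against hippocampus (0.0474). In KO mice probe set 160289_s_at was lower in hippocampus (218 to 272) than in cortex (255 to 355), with a log2 difference of -0.41 ± 0.12 (limma adjusted p = 0.0345). Probe set 97880_at was higher in KO hippocampus (333 to 498) than in KO cortex (306 to 332), with 0.33 ± 0.14 (0.149). The suffix s marks probes that can match more than 1 transcript, so which of them follows Dlst is not known here. Without KO animal 3389 or 3403 the difference on 160289_s_at did not pass (0.142 and 0.262), nor without WT animal 3406 (0.0569), with no filter (0.0519), no trend (0.0597) or no replicate block (0.0504).

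**Figure D2:**
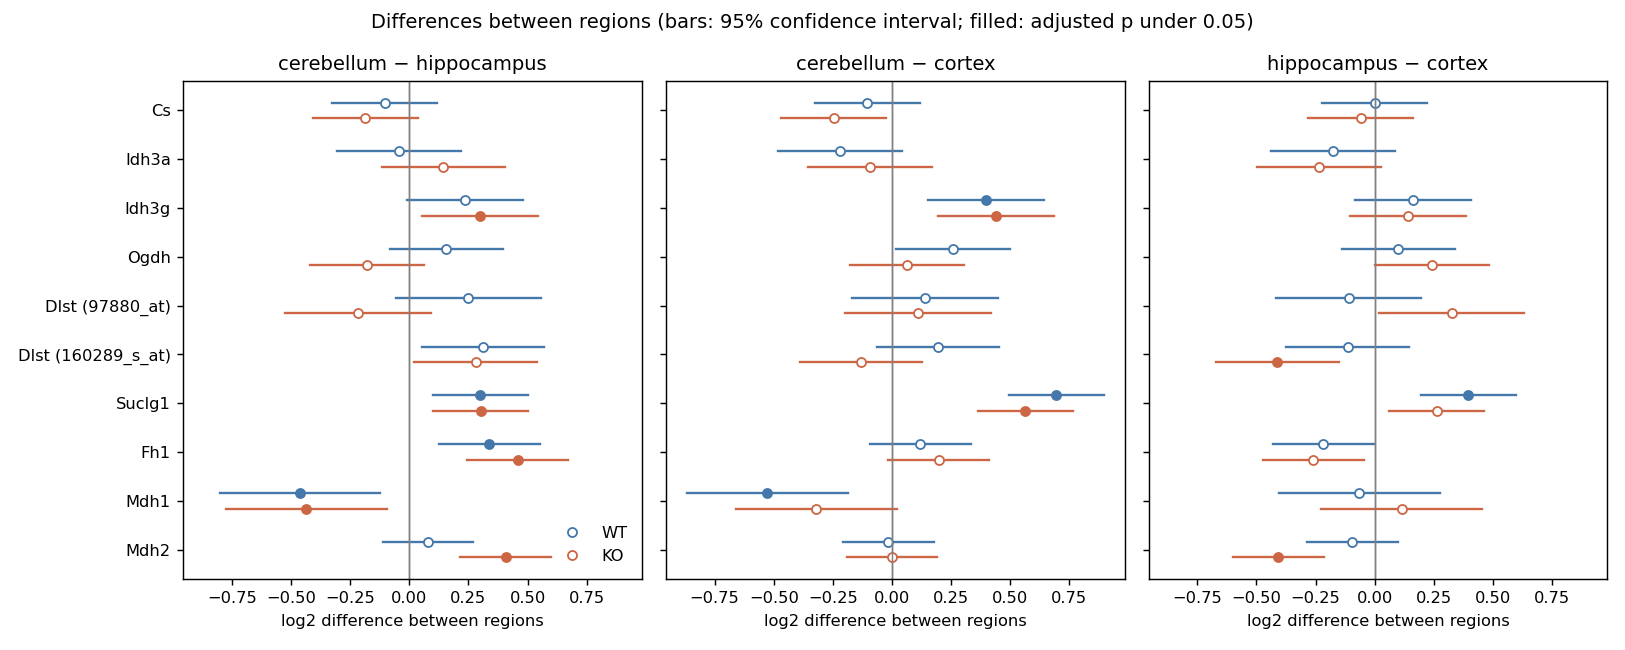
Log2 difference between regions for each probe set, WT in blue and KO in orange, with 95% confidence intervals. Filled points had a limma adjusted p under 0.05: Suclg1 in 5 of 6 comparisons, Mdh1 below 0 in 3.

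Among all probe sets, 31.1% passed between WT cerebellum and hippocampus, 43.2% between WT cerebellum and cortex and 14.3% between WT hippocampus and cortex. The enzymes had 3, 3 and 1 of 10. In KO the shares were 40%, 39% and 14.4%, and the enzymes had 5, 2 and 2 of 10. The KO F test was passed by 5 of 10, against 48.6% of all. Pan-neuronal markers (8 of 8 measured) summed to 6565 to 8469 in cerebellum, 8222 to 9157 in hippocampus and 9156 to 10758 in cortex over both genotypes. Astrocyte markers (7 of 8 measured) summed to 7475 to 8582, 5276 to 6115 and 4913 to 5658. RNA integrity, read as the ratio of 3′ to 5′ signal of a control gene, also differed between regions for Actb. Over both genotypes the Actb ratio was 1.64 to 1.93 in cortex, 1.09 to 1.46 in hippocampus and 1.18 to 1.39 in cerebellum. The Gapdh ratio overlapped, at 0.797 to 0.924, 0.797 to 0.904 and 0.788 to 0.844. The part of cell makeup or RNA integrity in the regional differences was not tested.

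The promoters of Suclg1 and Mdh1, the members with the largest differences between WT regions in opposite directions, are shown with that of Mdh2, which did not pass in WT. Each run is the 250 bases before the RefSeq gene start, 5′ to 3′ on the gene's strand, build GRCm38.p6. Capitals mark matches, on either strand, to a GC box (GGGCGG) or a CCAAT box (CCAAT).
Suclg1 (chr6:73248255-73248504, plus strand): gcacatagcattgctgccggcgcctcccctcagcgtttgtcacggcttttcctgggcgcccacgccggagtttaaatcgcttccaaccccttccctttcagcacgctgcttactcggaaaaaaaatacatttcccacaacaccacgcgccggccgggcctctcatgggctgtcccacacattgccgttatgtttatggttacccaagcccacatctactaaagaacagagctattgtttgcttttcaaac
Mdh1 (chr11:21571935-21572184, minus strand): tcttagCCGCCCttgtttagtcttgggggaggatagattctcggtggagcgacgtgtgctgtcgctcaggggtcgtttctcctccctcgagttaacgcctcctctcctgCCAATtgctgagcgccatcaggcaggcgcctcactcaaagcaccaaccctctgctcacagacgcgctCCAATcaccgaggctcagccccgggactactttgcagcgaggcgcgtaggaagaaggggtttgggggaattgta
Mdh2 (chr5:135778399-135778648, plus strand): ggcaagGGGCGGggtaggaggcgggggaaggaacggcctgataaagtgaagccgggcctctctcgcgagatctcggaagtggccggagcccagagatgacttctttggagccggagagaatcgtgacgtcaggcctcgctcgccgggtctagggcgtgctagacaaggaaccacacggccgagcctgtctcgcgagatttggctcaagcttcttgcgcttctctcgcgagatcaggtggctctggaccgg

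These windows differ in their letters. Suclg1 held neither box. Mdh1 held 1 GC box and 2 CCAAT boxes, the latter 141 and 74 bases before the start, and Mdh2 held 1 GC box. Promoters of 8 members were in the table (all but Idh3a), and the most upstream start was used for Ogdh, which had 6. A GC box was found in 5 of the 8 (Cs, Dlst, Fh1, Mdh1 and Mdh2) and in 32.7% of 32851 promoters of the same length. A CCAAT box was found in 4 (Cs, Ogdh, Fh1 and Mdh1) and in 33.8% of all. An ETS core (CCGGAA) was found in Idh3g only, and in 12% of all. TGCGCA, one arm of the palindromic NRF1 site, was found in 0 of the 8 and in 6.43% of all. The core bound by estrogen-related receptors (AAGGTCA) was found in 0 of the 8 and in 4.08% of all. The searches covered both strands, and none of these 5 motifs contains another.

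Between genotypes, none of the 10 probe sets passed in any region. Suclg1, Cs and Idh3g had log2 differences below 0 in all 3 regions, as did 12.9% of all probe sets. They were -0.24 to -0.098 for Suclg1 and Cs and -0.078 to -0.015 for Idh3g. Ogdh had -0.28 in cerebellum, and none of these passed over all probe sets. By limma, 0 of 10 had an adjusted p under 0.05 in hippocampus, cerebellum and cortex, where 0.119%, 0.0358% and 0.286% of all 8382 probe sets did. Unadjusted p under 0.05 was reached by 1, 3 and 0 of the 10, and by 8.41%, 12.1% and 10.2% of all. Median log2 differences over the 9 genes, on the probe set of highest signal, were -0.0091, -0.015 and -0.057, against 0.024, 0.033 and 0.0024 over all probe sets. The 95% intervals of single probe sets reached at most 1.44-fold in hippocampus, 1.47-fold in cerebellum and 1.41-fold in cortex, so larger differences in either direction lay outside them.

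**Figure D3:**
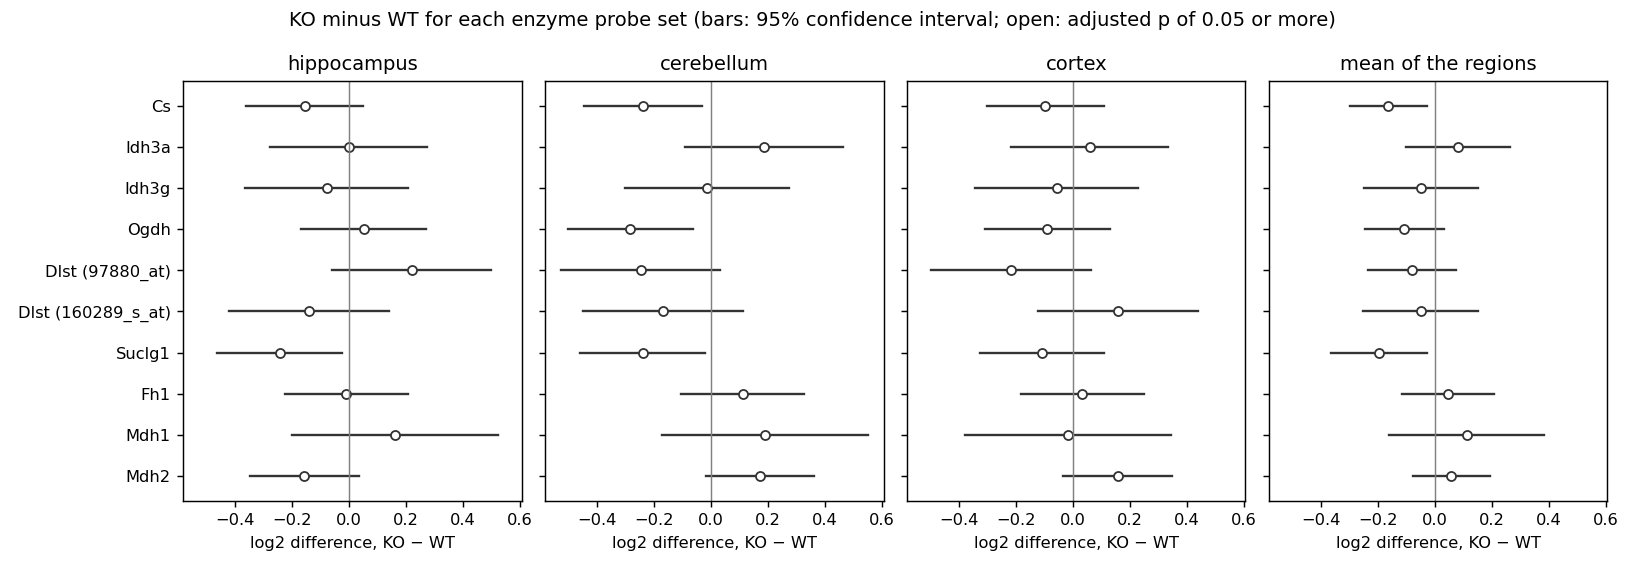
Log2 difference KO minus WT of the 10 probe sets in each region and for the mean of the regions, with 95% confidence intervals from limma. Every point is open, since no adjusted p was under 0.05. Cs, Idh3g and Suclg1 lie below 0 in all panels.

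Suclg1 in hippocampus read 485, 528 and 516 in KO animals 3363, 3389 and 3403, and 604, 636 and 570 in WT animals 3405, 3406 and 3396. All KO values were below all WT values. The log2 difference was -0.24 ± 0.10 (SE), with a 95% interval of -0.46 to -0.024 and a limma adjusted p of 0.565. In cerebellum KO read 645, 563 and 683 and WT 780, 748 and 700, again without overlap (-0.24 ± 0.10, adjusted p = 0.361). Cortex overlapped, with 405 to 450 in KO and 409 to 531 in WT (-0.11 ± 0.10, 0.788), and without WT animal 3406 its difference was -0.0019.

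Cs in cerebellum read 799, 718 and 663 in KO animals 3363, 3389 and 3403, and 818, 913 and 838 in WT animals 3405, 3406 and 3396. KO lay below WT without overlap, with a log2 difference of -0.24 ± 0.098 (limma adjusted p = 0.327). In hippocampus the KO values of 790 to 851 also lay below the WT values of 859 to 1034 (-0.16 ± 0.098, 0.7). In cortex 1 KO array exceeded 1 of the WT arrays, with 766 to 917 against 915 to 924 (-0.098 ± 0.098, 0.801).

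Ogdh in cerebellum read 632, 510 and 600 in KO animals 3363, 3389 and 3403, and 732, 748 and 637 in WT animals 3405, 3406 and 3396. Those groups did not overlap (-0.28 ± 0.10, limma adjusted p = 0.27). Ogdh in hippocampus and cortex overlapped, with differences of 0.052 ± 0.10 and -0.090 ± 0.10. Both Dlst probe sets were below 0 in cerebellum (-0.25 ± 0.13 on 97880_at and -0.17 ± 0.13 on 160289_s_at). They had opposite signs in hippocampus (0.22 ± 0.13 and -0.14 ± 0.13) and in cortex (-0.22 ± 0.13 and 0.16 ± 0.13). The members at the steps that the GABA shunt bypasses, Ogdh, Dlst (2 probe sets) and Suclg1, had 4 of 4 probe sets below 0 in cerebellum (44.3% of all probe sets were). In hippocampus 2 of 4 were below 0 (45.3%) and in cortex 3 of 4 (49.5%), and 0 of the 4 passed in any region. Dld, Sucla2 and Suclg2, other subunits at these steps, had 0.096, -0.15 and -0.082 in cerebellum. They had -0.20, -0.18 and 0.19 in hippocampus and 0.060, -0.075 and 0.016 in cortex.

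The remaining enzymes lay on both sides of 0. Mdh2 was higher in KO cortex without overlap (2172 to 2339 against 1902 to 2143), with a log2 difference of 0.16 ± 0.091 (limma adjusted p = 0.585). It had 0.17 ± 0.091 in cerebellum and -0.16 ± 0.091 in hippocampus, where the groups overlapped. Mdh1 had 0.16 ± 0.17, 0.19 ± 0.17 and -0.018 ± 0.17 in hippocampus, cerebellum and cortex. Fh1 lay between -0.0091 and 0.11, Idh3a between -0.0018 and 0.19, and Idh3g between -0.078 and -0.015. The groups of Mdh1, Fh1, Idh3a and Idh3g overlapped in all 3 regions.

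KO lay wholly below WT for 2 of 10 probe sets in hippocampus (Cs and Suclg1), 4 in cerebellum (Cs, Ogdh, Suclg1 and 160289_s_at of Dlst) and 1 in cortex (97880_at of Dlst). Of all probe sets 6.94%, 7.8% and 7.18% did. KO lay wholly above WT for 0, 0 and 1 (Mdh2), against 10.4%, 7.53% and 7.05%. All regions come from the same 6 animals, so agreement between them is not independent. Cs, Idh3g and Suclg1 were below 0 in all 3 regions, as were 12.9% of all probe sets.

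Other quantities differed between these groups as well. In cerebellum the neuron markers summed to 6565 to 6892 in KO and 7138 to 8469 in WT, with 0 of 8 under the floor, and the astrocyte markers to 7475 to 8320 and 8250 to 8582. In hippocampus the myelin and oligodendrocyte markers (10 of 11 measured) summed to 4259 to 5474 in KO and 6507 to 10017 in WT, with Cnp under the floor in WT; 9 of 9 kept ones were below 0 and 3 passed. The microglia markers (10 of 10 measured, 0 under the floor) summed there to 2268 to 2896 in KO and 2103 to 2204 in WT, without overlap, and in cortex to 1929 to 2625 and 1913 to 2037. In cortex the myelin markers summed to 3552 to 4532 and 6967 to 9010, with 9 of 9 below 0 and 7 past the threshold, and the astrocyte markers to 4913 to 5508 and 5648 to 5658. The lower astrocyte sums in KO rest on Aldoc, which is also on the glycolysis list. Its means were 1844 in KO and 2496 in WT cortex, where the sums had means of 5229 and 5654. In cerebellum Aldoc had 3440 and 3933, and the sums 7887 and 8416. In cortex the Gapdh 3′ to 5′ signal ratio, a measure of RNA integrity, was 0.804 ± 0.00773 in KO and 0.903 ± 0.0202 in WT (SD, n = 3). The same ratio for Actb did not differ there, at 1.768 ± 0.124 in KO and 1.773 ± 0.140 in WT. The part of these in the values above was not tested.

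Averaged over the 3 regions of each animal, 0 of 10 probe sets passed by limma (0.179% of all did). Unadjusted p under 0.05 was reached by 2, against 10.1% of all. Suclg1 had a log2 difference of -0.20 ± 0.076 (95% interval -0.37 to -0.029, adjusted p = 0.421) and Cs -0.16 ± 0.061 (-0.30 to -0.029, 0.408). Means of the 3 KO animals lay wholly below the 3 WT animals for Cs, Ogdh, Suclg1 and 97880_at of Dlst, 4 of 10, against 7.02% of all. Leaving out any 1 animal gave -0.25 to -0.15 for Suclg1 and -0.18 to -0.14 for Cs. The effect of genotype did not differ between regions past the threshold for any member: 0 of 10 passed the interaction F test (0.0477% of all), 1 of them at an unadjusted p under 0.05 against 10.7% of all. It was Mdh2, with a limma adjusted p of 0.42, which ranged from 0.145 to 0.733 over the alternatives.

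Neighbouring genes of the pathway were taken from a list. Of 10 other subunits of the cycle, 8 were kept (Dld, Sucla2, Suclg2, Sdha, Sdhb, Sdhc, Sdhd and Idh2). By limma, 0 of the 8 passed between KO and WT in hippocampus, cerebellum, cortex or their mean, and 0 had an unadjusted p under 0.05. In hippocampus 7 of 8 were below 0, with a median of -0.17 against 0.024 over all probe sets. In cerebellum the median was -0.047 and in cortex 0.038. Sdhd and Sdhc, the membrane anchors of succinate dehydrogenase, had the lowest p: -0.24 ± 0.12 for Sdhd in hippocampus (limma adjusted p = 0.633) and 0.25 ± 0.13 for Sdhc in cortex (0.541). Succinate dehydrogenase is the next enzyme after the point where the shunt enters.

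Between WT regions 3 of 8 of these subunits passed the F test, against 46.5% of all probe sets. Sdhc was higher in cerebellum than in cortex, at 1294 ± 237 against 945 ± 55.0 (SD, n = 3), a log2 difference of 0.44 ± 0.11 (limma adjusted p = 0.00456). Sdhd was at 718 ± 72.7 in cerebellum, above 543 ± 64.8 in hippocampus (adjusted p = 0.0176) and 557 ± 46.8 in cortex (adjusted p = 0.023). Idh2, the NADP-dependent mitochondrial isocitrate dehydrogenase, was highest in hippocampus, at 153 ± 3.91 (SD, n = 3) against 102 ± 5.54 in cerebellum and 105 ± 30.6 in cortex (limma adjusted p = 0.0218 and 0.043). In KO mice 1 of 8 passed, Sdhd, against 48.6% of all. The beta subunit genes of succinyl-CoA ligase, Sucla2 and Suclg2, did not pass in WT (0.89 and 0.262), unlike the alpha subunit gene Suclg1; a difference between these genes was not tested.

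Around the cycle, 0 kept genes passed between KO and WT in any region for pyruvate entry (7), the malate-aspartate shuttle and anaplerosis (9), the GABA shunt (3), glycolysis (14) or the respiratory chain and ATP synthase (45). Unadjusted p under 0.05 was reached in hippocampus, cerebellum and cortex by 0, 1 and 2 genes of pyruvate entry, 0, 2 and 0 of the shuttle list, 3, 4 and 3 of glycolysis and 3, 5 and 7 of the respiratory chain, and by 0 of the GABA shunt. Of all probe sets 8.41%, 12.1% and 10.2% reached it. Pdha1, a subunit of the pyruvate dehydrogenase complex that feeds the cycle, had 0.44 ± 0.11 in cortex (limma adjusted p = 0.125). Acly, which splits exported citrate, had -0.27 ± 0.099 in cerebellum (0.269), and cytosolic Idh1 -0.26 ± 0.14, -0.30 ± 0.14 and -0.27 ± 0.14 in hippocampus, cerebellum and cortex. Hk1, the first enzyme of glycolysis in brain, had -0.90 ± 0.21 in hippocampus (0.124) and the aldolase gene Aldoc -0.44 ± 0.094 in cortex (0.0578). Pdhb, of the same complex, had 0.44 ± 0.18 in cerebellum (limma adjusted p = 0.32). Among respiratory chain genes, Ndufb3 of complex I had 0.80 ± 0.24 in cerebellum (0.174) and Cox7a2 of complex IV -0.33 ± 0.095 in cortex (0.209). Respiratory chain genes had medians of -0.081, 0.057 and -0.081 in the 3 regions, with 37, 12 and 37 of 45 below 0. Over all probe sets the medians were 0.024, 0.033 and 0.0024, with 45.3%, 44.3% and 49.5% below 0. The GABA synthesis gene Gad1 had -0.10 ± 0.10, 0.17 ± 0.10 and 0.16 ± 0.10, and Akr7a5, whose product reduces succinate semialdehyde, -0.075 ± 0.19, -0.26 ± 0.19 and 0.12 ± 0.19.

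**Figure D4:**
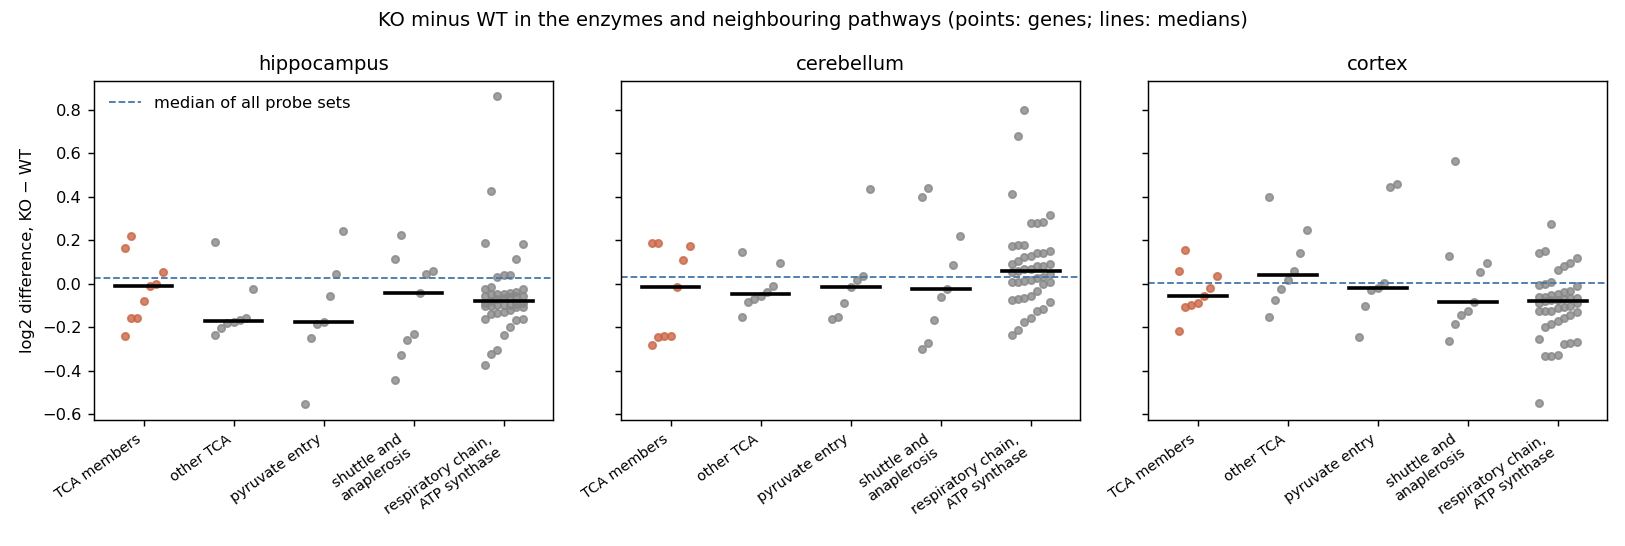
Log2 difference KO minus WT, 1 point per gene on the probe set of highest signal, for the TCA cycle members (orange) and the other TCA subunits, pyruvate entry, shuttle and anaplerosis, and respiratory chain lists (grey), with list medians as black lines and the median of all probe sets dashed. Members lie between -0.28 and 0.22, and the medians of these 4 lists between -0.18 and 0.057.

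Over the 18 arrays the members did not follow a common course. Pearson r between pairs of members, on log2 signal, ran from -0.79 (Idh3g with Mdh1) to 0.77 (Idh3g with Suclg1), and Suclg1 with Mdh1 had -0.75. Pairs at consecutive steps differed in sign, with 0.74 for Fh1 with Mdh2 and -0.38 for Mdh2 with Cs. So did subunits that work together, with 0.66 for Ogdh with Dlst and -0.075 for Idh3a with Idh3g. With each group centred on its own mean, Idh3g with Suclg1 had 0.36, Fh1 with Mdh2 0.49 and Mdh2 with Cs -0.49. Ogdh with Dlst then had 0.46 and Idh3a with Idh3g 0.35. These 18 points share regions and animals and are a description only. The probe sets most like the mean course of the members were those of Cyth2 (r = 0.80), Gt(ROSA)26Sor (0.80), Sap30 (0.77), Tra2b (0.75) and Fbxo45 (0.75). Most like single members were Nup188 for Suclg1 (0.95), Phtf2 for Fh1 (0.94), Agap1 for Mdh1 (0.92), Ube2o for Mdh2 (0.89) and Chchd3 for Idh3g (0.89). For Cs, Idh3a, Ogdh and Dlst these were Bzw1 (0.79), Gclc (0.81), Zdhhc3 (0.78) and Stip1 (0.72). Nup188 had means of 9.95 in KO and 11.1 in WT cortex, near the floor of 9.46. With each group centred on its own mean, the nearest genes were others. They were Wdr26 for Suclg1 (0.91), Tmem230 for Fh1 (0.91), Slc23a3 for Mdh1 (0.85), Wdfy2 for Mdh2 (0.82) and Id2 for Idh3g (0.89). For Cs, Idh3a, Ogdh and Dlst they were Ptprj (0.87), Kpna3 (0.82), Grin2c (0.86) and Impact (0.84).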

How the data were processed

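Signals of 12488 probe sets on 18 arrays are linear intensity values, scaled before they were deposited so that the 2% trimmed mean is equal on every array (150.07 to 150.08, computed here). Median signals ran from 53.5 to 64.8. The signal software was not given in the sources used here. Region and genotype came from the sample titles, since another label names hippocampus for every sample. Low values were raised to a floor at the 20th percentile of the data (9.46), and log2 was taken. The 66 controls were left out, and the 8382 other probe sets above their array's 40th percentile on at least 3 arrays were kept. Both percentiles were taken with the controls included.

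KO and WT were compared with limma 3.58.1 (R 4.3.3) on 6 group means over 18 arrays (12 residual degrees of freedom), or on 1 mean per animal (4). Regions and the interaction were tested with the animal as a fixed block (8). All tests are two-sided with an intensity trend, and p-values were adjusted by the Benjamini-Hochberg method across the kept probe sets. Intervals are 95% and not adjusted for the number of probe sets. Replicates are separate animals by number, and the number of arrays limits the precision. Arrays of 1 animal share the animal, which pairs the regions: residuals of the same animal correlated with a median r of 0.135 (-0.084 to 0.195). The comparison of KO and WT in hippocampus was run on simulated arrays with independent noise and planted differences. Those planted were larger than the members' differences between KO and WT. No effect of the animal was simulated, so the fits with a block or with 1 mean per animal were not tested this way. The F test over WT regions was compared with limma's own on the real arrays. Alternatives were quantile normalization, median scaling, no floor (values under 1 raised to 1), 16 added in its place, no filter, a 60th percentile filter, no trend, each animal left out, the other treatment of the block, and only the region's or genotype's own arrays.

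Gene symbols came from the platform annotation, updated through gene IDs to GRCm38.p6, and promoters from RefSeq on that build. Named genes were all members, and in each other list those past the threshold or else the 2 of lowest p. Most alike genes were the 5 of highest r with the members' mean and the highest for each member. Other WT region results and correlated pairs were picked after values were seen, for their size or as neighbours in the cycle. The members and lists were chosen with earlier results of these data known. No per-sample column was left unmapped.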

Additional observations from a re-analysis of the deposited data

Results flagged for a closer look

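Dlst probe set 97880_at had opposite differences between hippocampus and cortex in the genotypes. It was lower in hippocampus than in cortex in 3 of 3 WT animals (log2 -0.11 ± 0.14) and higher in 3 of 3 KO animals (0.33 ± 0.14). The difference of these differences was 0.437 ± 0.20 (SE), with an unadjusted p of 0.0491 and a limma adjusted p of 0.58, so it did not pass. On the other Dlst probe set, 160289_s_at, it was -0.30 ± 0.17.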

How the results depend on the processing

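Between KO and WT, none of the members passed in any region or in the mean of the regions under any alternative; the lowest adjusted p was 0.145. With the animal as a random replicate block the count past the threshold was 0 in each region. The members' median was -0.0091 in hippocampus, and -0.095 after median scaling and -0.10 to 0.067 with 1 animal left out. In cerebellum it was -0.089 after median scaling and -0.12 to 0.090 with 1 animal left out, in cortex -0.075 to -0.0019, and in the mean of the regions -0.099 after median scaling and -0.056 to 0.0047 with 1 animal left out, so its sign is not fixed in hippocampus, cerebellum and the mean; in cortex it was below 0 under every alternative. Median scaling itself moved the median of all probe sets by -0.0845 in hippocampus and -0.0724 in cerebellum. Between WT regions the count was 4, and 2 after quantile normalization, 2 with no intensity trend, 1 on the 9 WT arrays alone, 5 after median scaling (Mdh1 lost, Ogdh and 160289_s_at of Dlst gained) and 1 to 4 with 1 animal left out. Without the block it was 3, Idh3g being lost (adjusted p = 0.0623). Between KO regions it was 5, and 2 to 5 with 1 animal left out. Suclg1 passed both F tests throughout. Over all comparisons and alternatives, 75 of 2350 values of single probe sets lost a call, 11 gained one, 11 stayed uncalled but changed sign by more than their standard error, and 0 called ones changed sign; the other 2253 did none of these. Where the construction of an alternative does not show it, the cause was not tested.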
